A study of Mus musculus with 9 samples.

Results

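The Hedgehog pathway genes Shh, Ptch1, Smo, Gli1, Gli2, Gli3, Hhip, Sufu and Boc were followed in RNA from sorted mouse skin cells. They were taken by symbol, and all 9 were found among the 23361 genes of the table and passed the filter on low counts, which left 15078 genes. The cells were labelled as melanocyte stem cells, the reserve from which hair follicle pigment cells are renewed. The 9 libraries formed 3 groups of 3, Active, UVB and Quiescent, where UVB is a band of ultraviolet light, and every group came from mice of the genotype TBPT aged 10 weeks. The sources used here do not spell out its alleles, and the labels give the treatment of all samples alike as depilation with a chemical or irradiation with UVB. They do not say that the 3 libraries of a group came from separate animals, so p-values measure only the spread between these libraries.

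Hedgehog signalling starts when a secreted ligand, Sonic (Shh), Indian (Ihh) or Desert hedgehog (Dhh), binds the receptor Patched (Ptch1). Free of ligand, Patched keeps the membrane protein Smoothened (Smo) silent. Once Smo is released it acts in the primary cilium to free the Gli transcription factors from Sufu and from processing into repressors. Boc, Cdon and Gas1 are co-receptors that help the ligand bind, and Hhip is a membrane protein that captures it. Gli1, Ptch1 and Hhip are themselves induced by the pathway, so their transcripts are widely used as its readout. In skin, Shh comes from the epithelium of the growing hair follicle, and the dermal papilla and other cells around it respond. In peripheral nerve, Dhh comes from Schwann cells, which like melanocytes arise from the neural crest.

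UVB replicate 3 stood apart from the other UVB libraries in these genes. In it, Shh, Ptch1, Gli1, Gli2 and Hhip were at least 2 times as high as in both other UVB libraries, 5 of the 9 genes, against 5.49% of all genes tested. This library and the factor of 2 were chosen after the values were seen. The same excess was found in 6 of 6 markers of the hair matrix and inner root sheath, 3 of 6 of the dermal papilla, 2 of 6 of dermal fibroblasts and 0 of 8 of the melanocyte lineage. It was also found in 1 of 6 Schwann, 1 of 4 endothelial and 1 of 4 smooth muscle markers, and in 6 of 76 other pathway genes tested. Keratinocyte, T cell and myeloid markers had 0 each. Short of that factor, Dct, Mitf, Tyr, Kit, Pmel and Tyrp1 were highest of the UVB libraries in replicate 3, Sox10 was lowest and Mlana lay between. The summed level of the hair matrix markers was 79.0 CPM in UVB replicate 3, against 4.82 and 1.95 CPM in UVB replicates 1 and 2. CPM are counts divided by a library's scaled total and multiplied by 1e6. The dermal papilla markers summed to 57.7 CPM there, against 92.3 and 65.0 CPM in UVB replicates 1 and 2. Among them Crabp1 had 28.7 CPM there, against 71.0 and 47.8 CPM, and Lef1 was lower as well. Corin, Alpl, Hey2 and Prlr were higher in UVB replicate 3 than in both other UVB libraries. The part of such cells in the Hedgehog values was not tested. Fold changes and calls of the 9 genes, and the counts of the pathway lists, are therefore also given without UVB replicate 3.

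The groups also differed in other cell type markers. The 8 melanocyte lineage markers summed to 7653 to 12450 CPM in Active, 842 to 1026 CPM in UVB and 74.3 to 120 CPM in Quiescent. All 8 rose in Active and 6 rose in UVB against Quiescent, and 7 of the 8 fell in UVB against Active. Sox10 had 551, 561 and 661 CPM in Active and 528, 581 and 312 CPM in UVB, a log2 fold change of -0.32 in UVB against Active. In the Quiescent libraries Sox10 had 0.295 to 3.99 CPM and Tyr 1.45 to 2.44 CPM, so these 2 of the 8 markers were close to absent there. Of the other markers, Kit, Tyrp1, Pmel, Mlana and Dct averaged 3.99, 4.34, 5.10, 6.43 and 17.6 CPM in Quiescent. Mitf was the highest of the 8 in Quiescent, at 55.0 CPM on average. Mitf had 23.8, 19.97 and 38.1 CPM in UVB, all below its 47.3, 53.8 and 64.0 CPM in Quiescent, and Mlana averaged 6.72 CPM in UVB and 6.43 CPM in Quiescent; neither passed in UVB against Quiescent. Sox10, Tyr, Mitf and Mlana were singled out after their values were seen. The 6 dermal fibroblast markers summed to 4748 to 6036 CPM in Active, 21810 to 34010 CPM in UVB and 334000 to 450900 CPM in Quiescent, and all 6 fell in both Active and UVB against Quiescent. Endothelial markers summed to 14.2 to 18.1, 101 to 194 and 259 to 341 CPM in Active, UVB and Quiescent, and smooth muscle markers to 71.9 to 114, 100 to 227 and 679 to 937 CPM. The lists of keratinocytes, T cells and myeloid cells summed to 569 to 892, 20.9 to 26.4 and 7.81 to 21.5 CPM in Active, 210 to 511, 204 to 317 and 218 to 416 CPM in UVB, and 96.3 to 1480, 333 to 484 and 111 to 812 CPM in Quiescent. The T cell sum was mostly Thy1, which other cells also express, at 261 CPM on average in UVB and 428 CPM in Quiescent, whereas Cd3e, Cd3g and Cd3d rose in UVB against Quiescent (2.83, 5.17 and 1.71 CPM in UVB, against 0.169, 0.184 and 0.0658 CPM in Quiescent). The Schwann cell list summed to 794 to 1167 CPM in Active, 1000 to 1211 CPM in UVB and 647 to 679 CPM in Quiescent. In such bulk samples fewer cells of a type and less RNA per cell cannot be told apart, and the part of these shifts in the values below was not tested. Xist, which female cells transcribe, stood at 23353 to 30356 fragments in UVB libraries and at 4 to 12 in the others, and 4 Y-linked genes summed to 0 to 2 fragments in UVB libraries and 4106 to 5591 in the others. UVB and the sex of the mice can therefore not be told apart.

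**Figure D1:**
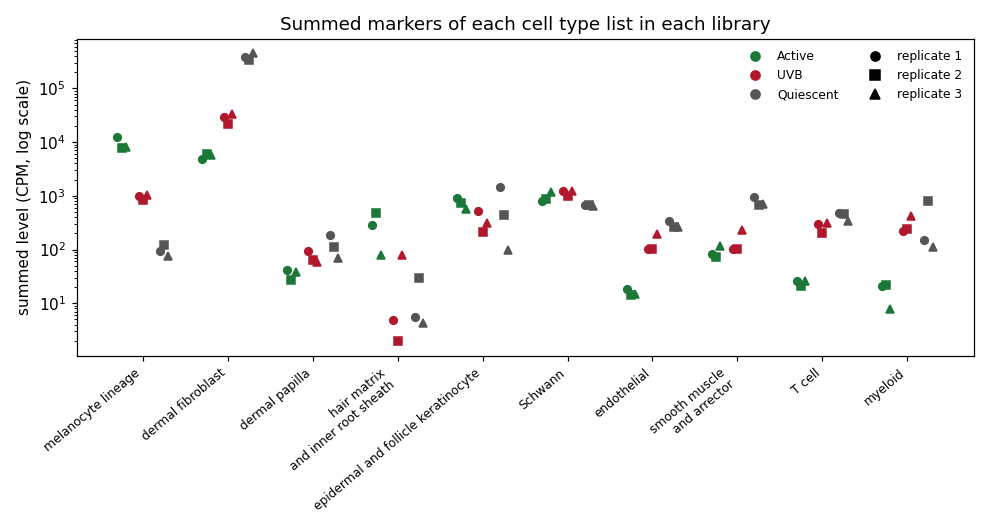
Summed level (CPM, log scale) of each list of cell type markers in each library, with Active, UVB and Quiescent from left to right and replicates by symbol. The dermal fibroblast sums lie between 334000 and 450900 CPM in Quiescent and at most 34010 CPM elsewhere, and for the hair matrix list UVB replicate 3, at 79.0 CPM, lies above the other UVB libraries.

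Promoter sequences show stretches around transcript starts. Of the 9 genes, 6 have a promoter in the RefSeq table of build GRCm38.p6, each 250 bases before to 50 after a transcript start. The motif best known to bind Gli proteins, GACCACCCA or its reverse complement, was searched on both strands and found in 0.253% of all 32851 promoters of this length, and in none of these 6. Its inner letters CCACCC, which lie within the full motif, occur on either strand in 31.5% of all promoters. The promoters of Ptch1, Gli2 and Hhip are shown because these genes stood higher in UVB replicate 3, and capitals mark CCACCC or its reverse complement. The Ptch1 window lies at chr13:63565686-63565985, that of Gli2 at chr1:119053570-119053869 and that of Hhip at chr8:80057959-80058258, all on the minus strand. The first lies inside the Ptch1 gene, chr13:63508328-63573460, and the second inside the Gli2 gene, chr1:118834061-119054405. Starts further upstream in these genes are therefore not covered by the windows shown.
Ptch1: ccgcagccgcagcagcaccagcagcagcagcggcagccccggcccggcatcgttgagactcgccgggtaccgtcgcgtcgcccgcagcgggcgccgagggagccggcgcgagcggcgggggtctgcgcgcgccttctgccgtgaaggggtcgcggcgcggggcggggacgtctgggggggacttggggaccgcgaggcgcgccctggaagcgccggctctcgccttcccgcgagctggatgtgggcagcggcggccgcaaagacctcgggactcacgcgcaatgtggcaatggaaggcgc
Gli2: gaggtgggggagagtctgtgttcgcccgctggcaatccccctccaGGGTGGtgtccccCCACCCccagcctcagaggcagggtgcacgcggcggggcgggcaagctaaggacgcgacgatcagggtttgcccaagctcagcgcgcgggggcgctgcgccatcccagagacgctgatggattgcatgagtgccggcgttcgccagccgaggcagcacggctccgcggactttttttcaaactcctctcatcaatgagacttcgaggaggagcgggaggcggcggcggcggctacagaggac
Hhip: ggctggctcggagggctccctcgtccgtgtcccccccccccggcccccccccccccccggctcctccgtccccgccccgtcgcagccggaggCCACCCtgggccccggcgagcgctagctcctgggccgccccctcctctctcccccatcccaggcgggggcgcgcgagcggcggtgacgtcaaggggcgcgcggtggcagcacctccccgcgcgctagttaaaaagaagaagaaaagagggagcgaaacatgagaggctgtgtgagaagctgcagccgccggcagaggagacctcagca
The Ptch1 window holds no such match, the Gli2 window holds 2, at 205 and 192 bases before the start, and the Hhip window 1, at 158 bases before it. A match describes these letters and is no evidence of binding.

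Shh, the ligand, was scarce everywhere and uneven. It had 2.43, 1.63 and 1.27 CPM in the Active libraries and 0, 0.0685 and 7.06 CPM in the UVB libraries, against 0.274, 0.238 and 0 CPM in the Quiescent libraries. Behind these stood 78, 45 and 31 fragments in Active, 0, 2 and 209 in UVB, and 7, 4 and 0 in Quiescent. A count of 0 allows up to 0.0945 CPM in UVB replicate 1 and 0.177 CPM in Quiescent replicate 3, for counting error only. All Active libraries lay above all Quiescent ones, while UVB replicate 3 was the highest of the series and UVB replicate 1, like Quiescent replicate 3, stood at 0. The hair matrix markers had sums of 79.6 to 484 CPM in Active, 1.95 to 79.0 CPM in UVB and 4.25 to 29.4 CPM in Quiescent. UVB replicate 3, highest in Shh, had 79.0 CPM in this sum, beside 79.6 CPM in Active replicate 3, the lowest of Active. Of these 6 markers 3 rose in Active against Quiescent, and Krt71, Krt25 and Krt35 were at 0 in at least 1 library. Their part in the Shh values was not tested. Exons of Shh share 446 bases with an antisense gene, 9530036O11Rik, which had at most 0.0338 CPM in any library. Exons of Gli1 share 62 bases with Arhgap9 on the other strand, which averaged 1.59 CPM in Active, 12.9 CPM in UVB and 7.16 CPM in Quiescent. On the other strand, exons of Shh also share 361 bases with Gm26894, those of Gli1 265 with Gm47200, those of Gli3 188 with Gm6556 and those of Hhip 175 with Gm27820. The sources used here do not state whether counting used strand, so reads from such shared stretches cannot be told apart.

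Hhip, which captures ligand, was low as well. It had 1.12, 1.31 and 0.572 CPM in Active and 1.67, 0.890 and 11.8 CPM in UVB, against 3.17, 3.34 and 5.26 CPM in Quiescent. Every Active library lay below every Quiescent one, and so did UVB replicates 1 and 2, whereas UVB replicate 3 lay above all others.

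Ptch1, receptor and target, had 21.1, 13.2 and 18.7 CPM in Active and 25.1, 25.3 and 54.0 CPM in UVB, against 10.1, 12.5 and 7.56 CPM in Quiescent. The 3 groups did not overlap: UVB was highest, then Active, then Quiescent. Boc, the co-receptor, had 19.3, 10.3 and 14.0 CPM in Active and 27.04, 16.4 and 30.6 CPM in UVB, against 65.1, 64.9 and 50.5 CPM in Quiescent. Its Quiescent libraries lay above all others, and those of Active and UVB overlapped.

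Smo, which carries the signal across the membrane, had 69.2, 65.4 and 69.0 CPM in Active and 65.96, 72.2 and 90.3 CPM in UVB, against 127, 109 and 109 CPM in Quiescent. Quiescent lay above both other groups without overlap. Sufu, which holds Gli proteins back, had 12.6, 12.3 and 12.3 CPM in Active and 16.1, 16.3 and 15.6 CPM in UVB, against 12.0, 8.82 and 12.2 CPM in Quiescent. UVB replicate 3 was no exception for Sufu, and all UVB libraries lay above all others.

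Gli1, the activator that reports pathway output, had 7.64, 4.68 and 4.17 CPM in Active and 17.3, 18.0 and 61.9 CPM in UVB, against 10.2, 8.76 and 8.44 CPM in Quiescent. The groups did not overlap, with UVB highest and Active lowest. Gli2, the main activator of the first response, had 2.84, 2.65 and 3.72 CPM in Active and 20.1, 16.4 and 40.3 CPM in UVB, against 24.4, 18.7 and 14.6 CPM in Quiescent. Active lay below both other groups, and UVB overlapped Quiescent. Gli3, which acts mostly as a repressor, had 49.4, 51.5 and 56.0 CPM in Active and 71.0, 76.1 and 47.0 CPM in UVB, against 44.0, 43.9 and 61.8 CPM in Quiescent. Its groups all overlapped, and UVB replicate 3 was the lowest of its group.

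**Figure D2:**
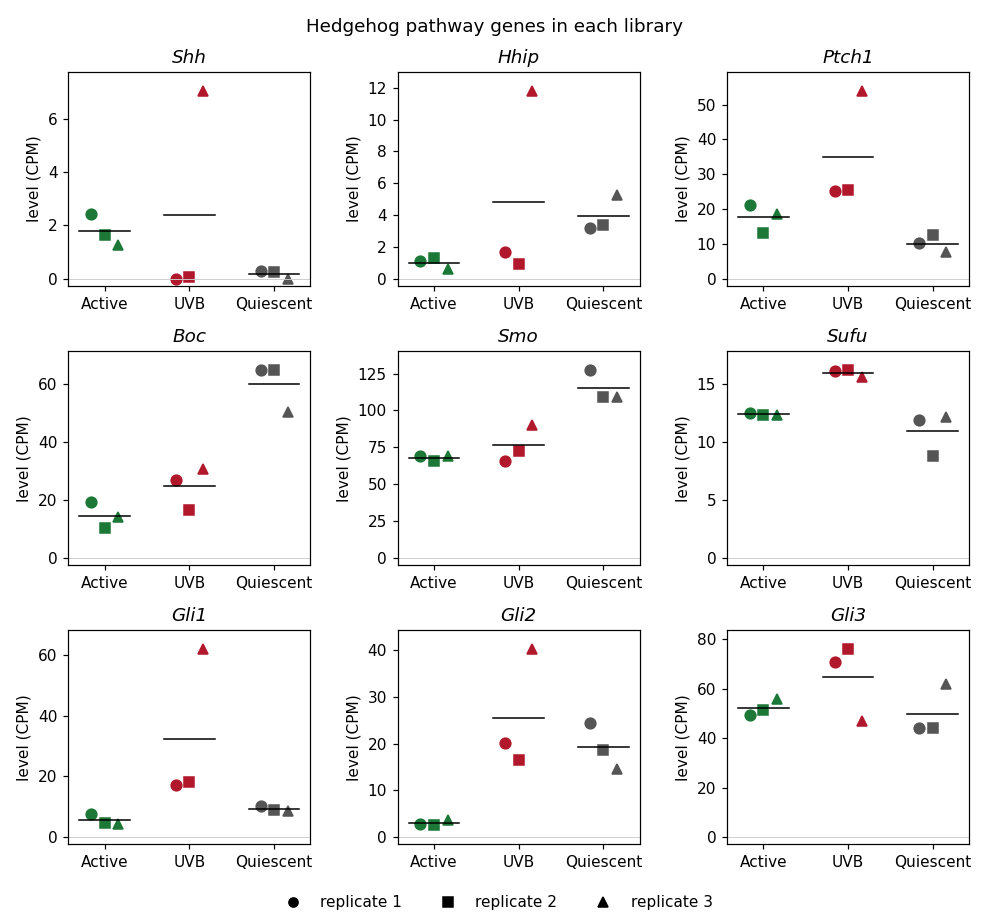
Level (CPM, linear axes) of each of the 9 genes in each library, with the group mean as a line over Active, UVB and Quiescent from left to right and replicates by symbol. UVB replicate 3 reaches 7.06 CPM for Shh, 11.8 for Hhip and 61.9 for Gli1, the highest values of those genes.

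The comparison of Active with Quiescent asked how cells labelled as activated differ from those labelled as quiescent. Of the 9 genes, Smo, Gli2 and Boc fell, 3 of 9 called where 58.3% of all genes tested were called, 29.1% higher and 29.2% lower. Gli2 was 6.28-fold lower, at 3.07 ± 0.573 CPM in Active and 19.2 ± 4.92 CPM in Quiescent (SD, n = 3 libraries each), which is -2.65 ± 0.37 (SE) in log2 units (edgeR adjusted p = 0.000315). Each such p comes from the quasi-likelihood F test of edgeR, was adjusted by Benjamini and Hochberg's method over the 15078 genes and was called under 0.05. Boc was 4.13-fold lower, at 14.5 ± 4.54 CPM in Active and 60.1 ± 8.37 CPM in Quiescent (edgeR adjusted p = 0.000331). Smo was 1.70-fold lower, with 67.8 ± 2.13 CPM in Active and 115 ± 10.7 CPM in Quiescent (edgeR adjusted p = 0.00102), but with library size alone as the scaling its log2 fold change was -0.02. That scaling took the median change of all genes to 0.76 (log2), against 0.01 with TMM, and to 0.74 in UVB against Quiescent, against 0.02, so the drop of Smo is relative to the other genes.

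Gli1, Hhip, Ptch1 and Shh did not pass in Active against Quiescent, and their estimates differed in sign. Gli1 averaged 5.49 ± 1.87 CPM in Active and 9.12 ± 0.916 CPM in Quiescent (log2 fold change -0.73, 95% interval -1.85 to 0.39, edgeR adjusted p = 0.232), and its sign turned with library size alone, at 0.02. Hhip averaged 0.9999 ± 0.382 CPM in Active and 3.92 ± 1.16 CPM in Quiescent (log2 fold change -1.96, interval -3.96 to 0.04, edgeR adjusted p = 0.0849). Ptch1 averaged 17.6 ± 4.07 CPM in Active and 10.0 ± 2.45 CPM in Quiescent (log2 fold change 0.81, interval 0.04 to 1.59, edgeR adjusted p = 0.0679, DESeq2 adjusted p = 0.0398). Shh averaged 1.78 ± 0.595 CPM in Active and 0.171 ± 0.149 CPM in Quiescent (log2 fold change 3.28, interval -0.85 to 7.42, edgeR adjusted p = 0.152). UVB replicate 3 has no part in this contrast but enters the estimate of spread. Without it, 7 of the 9 genes were called where 58.3% of all genes tested were called, with Shh (edgeR adjusted p = 0.0109) and Ptch1 (0.0165) higher and Gli1 (0.0326) and Hhip (0.00531) lower beside the first 3. Gli3 and Sufu had log2 fold changes of 0.07 and 0.18 and were not called. Of the 9 genes 8 had no overlap between the libraries of Active and Quiescent, all but Gli3, against 66.2% of all genes tested.

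The comparison of UVB with Quiescent asked how cells labelled UVB differ from those labelled as quiescent. Gli1, Ptch1 and Sufu rose and Smo and Boc fell, 5 of 9 called where 49.0% of all genes tested were called, 25.8% higher and 23.2% lower. Gli1 was 3.54-fold higher, at 32.4 ± 25.6 CPM in UVB and 9.12 ± 0.916 CPM in Quiescent, a log2 fold change of 1.83 ± 0.50 with edgeR adjusted p = 0.0146. Ptch1 was 3.46-fold higher, at 34.8 ± 16.6 CPM in UVB and 10.0 ± 2.45 CPM in Quiescent (log2 fold change 1.79 ± 0.35, edgeR adjusted p = 0.00287). Without UVB replicate 3 both were still called, with log2 fold changes of 0.95 ± 0.26 for Gli1 and 1.33 ± 0.25 for Ptch1 (edgeR adjusted p = 0.0183 and 0.00329). UVB replicate 3 thus set much of the size of the Gli1 value and not its direction.

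Sufu was 1.46-fold higher, at 16.01 ± 0.337 CPM in UVB and 10.98 ± 1.88 CPM in Quiescent (edgeR adjusted p = 0.0163, and 0.0504 without UVB replicate 1). Boc was 2.44-fold lower, at 24.7 ± 7.41 CPM in UVB and 60.1 ± 8.37 CPM in Quiescent (edgeR adjusted p = 0.00513), and with library size alone it had adjusted p = 0.112. Smo was 1.51-fold lower, at 76.2 ± 12.7 CPM in UVB and 115 ± 10.7 CPM in Quiescent (edgeR adjusted p = 0.00517), and its sign turned with library size alone, at a log2 fold change of 0.13. Gli2, Gli3, Hhip and Shh did not pass. Hhip had a log2 fold change of 0.29 (interval -1.59 to 2.18), and -1.60 with edgeR adjusted p = 0.0273 without UVB replicate 3. Shh had 3.70 (interval -0.45 to 7.85), and -2.26 with edgeR adjusted p = 0.18 without that library. Gli2 had 0.41, and -0.08 without it. Gli3 had 0.37 (edgeR adjusted p = 0.151), and 0.56 with adjusted p = 0.0216 without it. Smo, Boc and Sufu were still called without UVB replicate 3, at -0.73, -1.47 and 0.56 (edgeR adjusted p = 0.00115, 0.00535 and 0.0283). In all, 7 of the 9 genes were then called, where 48.9% of all genes tested were called. Of the 9 genes 5 had no overlap between UVB and Quiescent, against 57.6% of all genes tested. Both comparisons use the same Quiescent libraries and are not independent.

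UVB was set against Active to ask whether the 2 differ from each other. Gli1 and Gli2 rose, 2 of 9 called where 24.0% of all genes tested were called, 14.8% higher and 9.19% lower. Gli2 was 8.35-fold higher, at 25.6 ± 12.9 CPM in UVB and 3.07 ± 0.573 CPM in Active, or 3.06 ± 0.37 in log2 units, with edgeR adjusted p = 0.0014. Gli1 was 5.88-fold higher, at 32.4 ± 25.6 CPM in UVB and 5.49 ± 1.87 CPM in Active (log2 fold change 2.55 ± 0.51, edgeR adjusted p = 0.00962). Without UVB replicate 3 both remained called, with log2 fold changes of 2.57 for Gli2 and 1.68 for Gli1 (edgeR adjusted p = 0.00109 and 0.00697). Ptch1 had a log2 fold change of 0.98 (edgeR adjusted p = 0.0644), Boc 0.76 (0.0786), Hhip 2.25 (0.0954) and Sufu 0.37 (0.108). Without UVB replicate 3 these were 0.51 for Ptch1 (edgeR adjusted p = 0.19), 0.58 for Boc (0.206), 0.35 for Hhip (0.647) and 0.38 for Sufu (0.159). Smo (0.17) and Gli3 (0.31) did not pass either, and stood at 0.03 and 0.49 without that library. Shh had 0.41 with edgeR adjusted p = 0.866, and -5.55 with adjusted p = 0.02 without UVB replicate 3, when 3 of the 9 genes were called, where 17.5% of all genes tested were called. No overlap between UVB and Active was found for 4 of the 9 genes, Ptch1, Gli1, Gli2 and Sufu, against 46.7% of all genes tested.

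**Figure D3:**
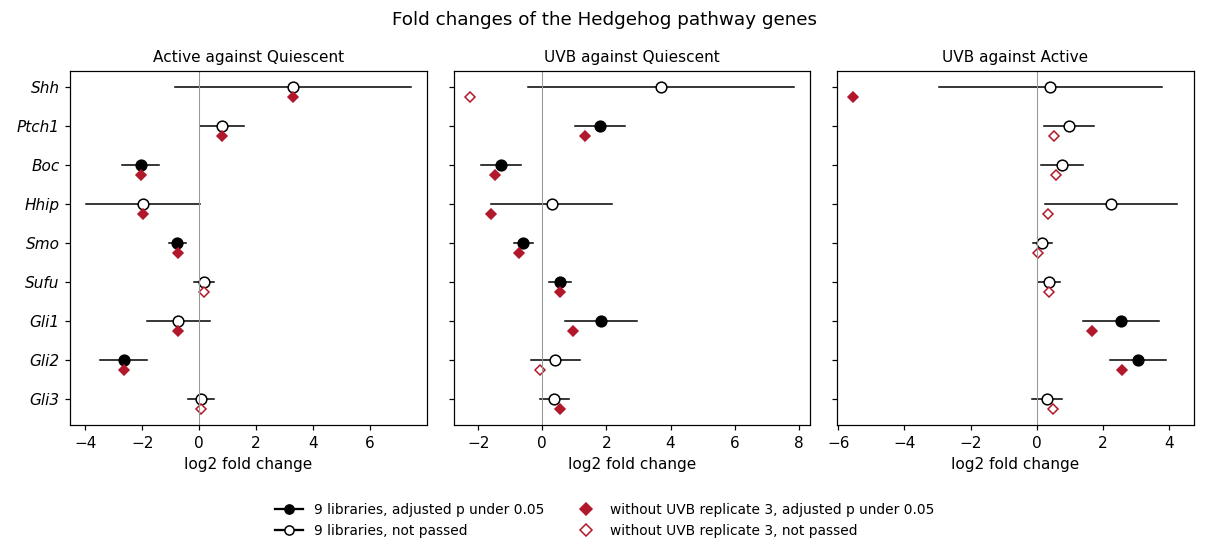
Log2 fold change of each of the 9 genes in the 3 comparisons, as black circles with 95% intervals from all 9 libraries and red diamonds without UVB replicate 3; filled symbols have an edgeR adjusted p under 0.05. Gli2 stands at -2.65 in Active against Quiescent and at 3.06 in UVB against Active, and the diamonds of Shh, Gli2 and Hhip lie on the other side of 0 from the circles in UVB against Quiescent.

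Per length of transcript, in the authors' FPKM, Smo was the most abundant of the 9 transcripts in every group. It averaged 17.2 ± 0.434 FPKM in Active, 19.1 ± 2.90 FPKM in UVB and 29.3 ± 2.87 FPKM in Quiescent. In Active it was followed by Gli3, Sufu, Ptch1, Boc, Gli1, Shh, Gli2 and Hhip, where Ptch1 and Boc, and Shh and Gli2, overlapped. In UVB the order was Smo, Gli1, Ptch1, Gli3, Sufu, Boc, Gli2, Shh and Hhip, and each pair of neighbours overlapped but Sufu and Boc. In Quiescent it was Smo, Boc, Gli3, Sufu, Gli2, Gli1, Ptch1, Hhip and Shh, and Gli3 overlapped Sufu, Gli2 overlapped Gli1 and Gli1 overlapped Ptch1.

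The makeup of the Gli family differed between groups on the same scale. Gli1 made up 25.5%, 16.9% and 14.0% of the summed FPKM of Gli1, Gli2 and Gli3 in Active and 29.9%, 30.6% and 60.0% in UVB, against 24.4%, 23.6% and 19.999% in Quiescent. Gli2 made up 5.04%, 5.08% and 6.66% in Active and 18.5%, 14.9% and 20.8% in UVB, against 31.2%, 26.7% and 18.4% in Quiescent. Gli3 held the largest share in all libraries but UVB replicate 3, where it held 19.2%. The summed level was 7.74 to 8.28 FPKM in Active and 15.8 to 27.7 FPKM in UVB, against 10.2 to 11.8 FPKM in Quiescent. These shares are descriptions and were not tested.

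**Figure D4:**
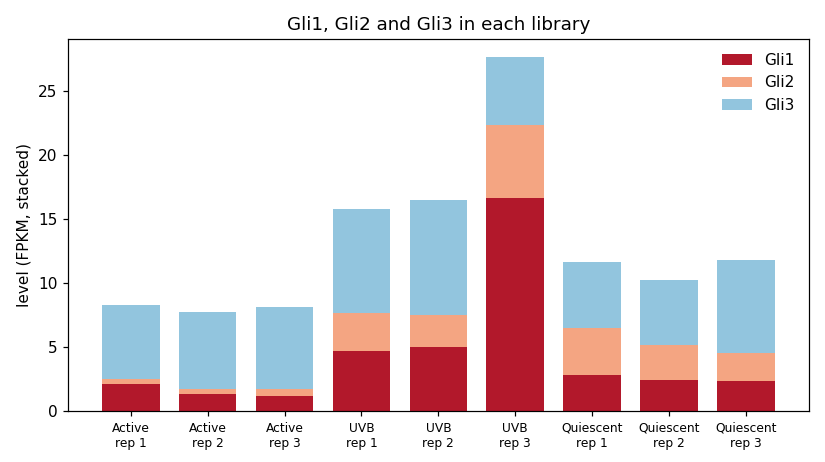
Stacked level (FPKM, linear axis from 0) of Gli1, Gli2 and Gli3 in each library, with Active, UVB and Quiescent from left to right. Gli1 takes 60.0% of the bar in UVB replicate 3, and Gli2 at most 6.66% of any Active bar.

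The other genes of the pathway were taken from 6 lists by role, 83 genes in all, of which 76 were tested. In Active against Quiescent 19 rose and 21 fell, in UVB against Quiescent 26 rose and 18 fell, and in UVB against Active 13 rose and 3 fell. These are 52.6%, 57.9% and 21.1% of the 76, near the 58.3%, 49.0% and 24.0% of all genes tested. Their median log2 fold changes were 0.045, 0.13 and 0.16, beside 0.01, 0.02 and 0.01 for all genes tested. With UVB replicate 3 left out, 41, 39 and 10 of 77 tested were called, against 58.3%, 48.9% and 17.5% of all genes. The same shares of all genes are the background of each list below.

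Among ligands and genes of their release, Dhh stood far above Shh in Active and UVB. Dhh had 22.5, 20.6 and 33.7 FPKM in Active and 29.8, 36.4 and 36.7 FPKM in UVB, against 1.27, 0.446 and 0.210 FPKM in Quiescent. Shh reached 2.66 FPKM in UVB replicate 3 and at most 0.945 FPKM in the other libraries. In CPM, Dhh rose 37.7-fold in Active and 50.9-fold in UVB against Quiescent (log2 fold changes 5.24 ± 0.51 and 5.67 ± 0.51, edgeR adjusted p = 4.3e-05 and 6.2e-05). The Schwann cell marker Pmp22, from a list that also holds Dhh, had 406 to 533 CPM in Active, 455 to 509 CPM in UVB and 589 to 602 CPM in Quiescent. Of that list 2 of 6 rose and 2 fell in Active, and 2 rose and 1 fell in UVB. Disp1, which releases the ligand from the cell that makes it, fell 3.62-fold in Active and 2.79-fold in UVB (edgeR adjusted p = 2.4e-05 and 0.000127). Of the 6 tested genes of the list, Scube2, whose secreted product helps that release, fell in both as well. Hhat, which attaches a fatty acid to the ligand, rose 1.501-fold in UVB. Of the 6 genes 1 rose and 2 fell in Active and 2 rose and 2 fell in UVB against Quiescent, with the same counts among 7 genes without UVB replicate 3.

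The co-receptors fell with Boc. Cdon had 6.39, 6.13 and 6.09 CPM in Active and 34.0, 33.8 and 62.9 CPM in UVB, against 134, 118 and 113 CPM in Quiescent. It was 19.6-fold lower in Active and 2.80-fold lower in UVB against Quiescent (edgeR adjusted p = 6.1e-06 and 0.000873). Gas1 was 8.64-fold lower in Active and 2.42-fold lower in UVB (edgeR adjusted p = 0.000423 and 0.0346). Gpc4, a glypican of the cell surface, was 19.3-fold and 11.1-fold lower, while Gpc6 rose 2.11-fold and 2.08-fold. Of the 6 tested genes of this list 1 rose and 3 fell in Active against Quiescent, 3 rose and 3 fell in UVB against Quiescent, and 3 rose in UVB against Active. The median log2 fold changes were -1.79, -0.11 and 1.59. Without UVB replicate 3, 1 rose and 3 fell in UVB against Quiescent (median -0.63) and 2 rose in UVB against Active (median 0.78).

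Gpc3, a glypican that binds ligand and was chosen after its values were seen, had 60.4, 32.9 and 228 CPM in UVB, against 38.6, 38.0 and 23.7 CPM in Quiescent. It rose in UVB against Quiescent (edgeR adjusted p = 0.0456), and without UVB replicate 3 its adjusted p was 0.185, so the call rests on that library.

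**Figure D5:**
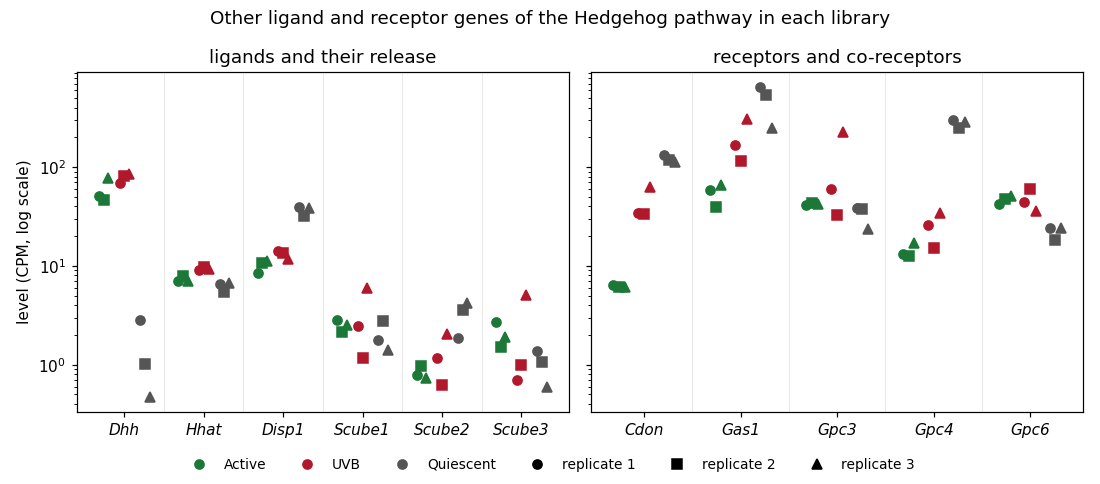
Level (CPM, log scale) of ligand and receptor genes outside the 9 in each library, with Active, UVB and Quiescent from left to right for each gene and replicates by symbol. Dhh lies at 46.3 CPM or more in Active and UVB and at most 2.85 CPM in Quiescent, and UVB replicate 3 stands at 228 CPM for Gpc3.

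Genes that act between Smo and Gli moved both ways. Of 10 genes of Smo trafficking and the gate of the cilium, 2 rose and 2 fell in Active and 4 rose and 2 fell in UVB against Quiescent, or 3 and 1 without UVB replicate 3. Evc2, which anchors active Smo at the base of the cilium, fell 2.18-fold in Active and 1.73-fold in UVB, and Tulp3, which carries receptors into the cilium, rose 1.90-fold and 1.68-fold. Of 16 tested Gli regulators, 4 rose and 5 fell in Active, 6 rose and 5 fell in UVB against Quiescent, and 2 rose and 1 fell in UVB against Active. When UVB replicate 3 was left out, 6 rose and 5 fell in Active, 5 rose and 4 fell in UVB against Quiescent, and 3 rose in UVB against Active. Spop, an adaptor for the degradation of Gli proteins, fell 2.70-fold in Active and 2.16-fold in UVB (edgeR adjusted p = 3.7e-05 and 0.00024). Zic1, a zinc finger factor related to the Gli proteins, had 0.850 ± 0.0741 CPM in Active, 14.2 ± 6.43 CPM in UVB and 82.6 ± 9.80 CPM in Quiescent and fell in both. Prkar1a, a regulatory subunit of protein kinase A, which marks Gli proteins for processing, rose 1.77-fold and 1.51-fold.

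Of 20 genes of transport in the cilium, 3 rose and 4 fell in Active against Quiescent, 3 rose and 3 fell in UVB against Quiescent, and 3 rose and 2 fell in UVB against Active. The median log2 fold changes were 0.05, 0.03 and -0.07. Without UVB replicate 3 the counts against Quiescent were 3 and 4 in both Active and UVB, and 1 gene rose in UVB against Active. Rpgrip1l, a protein of the transition zone at the base of the cilium, fell 7.77-fold in Active and 4.61-fold in UVB (edgeR adjusted p = 3.6e-06 and 1.8e-05). Ift140, of the transport complex for return along the cilium, rose 1.73-fold and 1.48-fold.

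The list of transcriptional targets was split. Of 18 tested genes, 8 rose and 5 fell in Active, 8 rose and 3 fell in UVB against Quiescent, and 5 rose in UVB against Active. Their median log2 fold changes were 0.38, 1.17 and 0.15. In the fit that left out UVB replicate 3, 7 rose and 5 fell in Active, 8 rose and 3 fell in UVB against Quiescent, and 4 rose in UVB against Active, with medians of 0.38, 1.097 and 0.37. Ccnd1, which encodes cyclin D1, rose 10.9-fold in Active and 9.43-fold in UVB, and Mycn, a transcription factor gene of the Myc family, 21.04-fold and 16.9-fold. Both also respond to other pathways. Igfbp6, which encodes a secreted binding protein for insulin-like growth factors, had 5.80 ± 1.45 CPM in Active, 54.6 ± 34.5 CPM in UVB and 964 ± 370 CPM in Quiescent. Snai1, a transcriptional repressor gene, fell 12.3-fold in Active and was 9.94-fold higher in UVB than in Active.

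The genes most like Gli1 over the 9 libraries, by Pearson's r of log2 CPM, were Actn1 (r = 0.973), Fbn2 (0.967), Ucp2 (0.951), Magi1 (0.938) and Runx2 (0.935). The libraries fall into 3 groups, and UVB replicate 3 weighs on these values, which describe an order and carry no test. Fbn2, which encodes a fibrillin of the matrix, had 29.5, 19.6 and 119 CPM in the UVB libraries, and averaged 5.61 CPM in Active and 9.71 CPM in Quiescent. Those most like Shh were Mettl8 (r = 0.943), Pdcd2l (0.914), Rapgef3 (0.897), Gjb2 (0.897) and Gprc5b (0.888). Shh had 7, 4 and 0 fragments in Quiescent and 0 and 2 in UVB replicates 1 and 2, so its log2 values there lie near the floor. The value r does not measure the size of a change. Mettl8 averaged 9.93, 8.62 and 8.08 CPM in Active, UVB and Quiescent, and Pdcd2l 14.9, 12.2 and 11.9 CPM. Rapgef3 averaged 13.8, 10.9 and 10.2 CPM and Gprc5b 40.1, 37.9 and 32.6 CPM. Gjb2, which encodes a connexin of epithelial gap junctions, averaged 43.0 CPM in Active and had 2.71, 0.925 and 28.4 CPM in the UVB libraries.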

How the data were processed

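RNA of sorted mouse cells was sequenced in 9 libraries made from 500 ng of input, 3 per group. Per the submitters' processing notes, tools named are cutadapt 1.8, TopHat2 2.0.13 and Cuffdiff 2.2.1, with build mm10. The deposited table gives, per the file headers, estimated counts of fragments and FPKM per gene and library. The sources used here do not state the gene annotation or whether counting used strand. Libraries held 21045070 to 35131778 fragments, and their number limits the precision of low genes.

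Estimated counts were rounded to whole numbers (1.075% of values were not whole, at a tolerance of 1e-06), filtered with filterByExpr and scaled by TMM. The quasi-likelihood test of edgeR 4.0.16 (R 4.3.3) was used, with 1 fit of all 9 libraries and a mean per group. Standard errors are the log2 fold change divided by the root of F. DESeq2 1.42.0, limma 3.58.1 on log2(FPKM + pseudocount), other scalings, filters and left-out libraries were alternatives. The scripts were tested on simulated data. The 9 genes and all gene lists were chosen with earlier results of these data known. Named genes are the 9 genes, from each pathway list up to 4 called genes of smallest adjusted p per comparison, the 2 most abundant markers of a cell type, and for Gli1 and Shh the 5 genes of highest Pearson's r among those of mean log2 CPM of at least 2; exceptions are stated, and some items are not reported here. Promoters are from RefSeq, GRCm38.p6, and exon overlaps from GENCODE. Limits for a count of 0 are 3 fragments and cover counting error only.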

Additional observations from a re-analysis of the deposited data

How the results depend on the processing

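Shh and Hhip had few fragments in most libraries, and 1 library decides several values. Of the results for single genes of the 9, 227 kept direction and side of the threshold when 1 library was left out, 9 gained a call, 1 lost it and 6 reversed. Under the other settings 244 kept both, 13 gained a call, 2 lost it and 7 reversed.
With library size alone as the scaling, 5 of the 9 genes were called in Active against Quiescent, 3 higher and 2 lower, and 5 in UVB against Quiescent, all higher; over all genes this called 72.0% and 66.3%, with 8651 higher and 2206 lower, and 8746 higher and 1246 lower. It turned Gli1 in Active against Quiescent to 0.024 and Smo in UVB against Quiescent to 0.13 (log2), and ended the calls of Smo in Active (-0.02, edgeR adjusted p = 0.928) and Boc in UVB (-0.57, 0.112) against Quiescent. DESeq2 called 5 of the 9 in Active against Quiescent (60.7% of all genes) and 5 in UVB against Active (30.8%), and a fit of only the 2 groups compared called 6 in Active against Quiescent (57.9%). On FPKM, limma put Shh in UVB against Active at -0.11 with a pseudocount of 1 and at -1.23 with 0.1, and Hhip in UVB against Quiescent at -0.30 with 0.1.

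With 1 library left out, 3 to 7 of the 9 genes were called in Active against Quiescent, 4 to 7 in UVB against Quiescent and 2 to 4 in UVB against Active, and over all genes 7522 to 8938, 5901 to 7492 and 1452 to 4226. The highest counts of the 9 came without UVB replicate 3 against Quiescent and without UVB replicate 2 in UVB against Active, where 1452 genes were called without Active replicate 2 and 4226 were called without Quiescent replicate 3. Log2 fold changes that crossed 0 ranged, for UVB against Quiescent, from -2.26 to 4.29 (Shh), -0.075 to 0.65 (Gli2) and -1.60 to 0.78 (Hhip), for UVB against Active from -5.55 to 0.997 (Shh), and for Active against Quiescent from -0.0145 to 0.25 (Gli3). The cause was not tested.

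Deviations of libraries with the same replicate number had r of -0.171 to 0.231, and 9 of 18 matches were best with their own number. With 3 libraries a group, these values cannot settle whether the numbers are a pairing. With the number as a replicate block 8223, 6809 and 2830 genes were called in Active against Quiescent, UVB against Quiescent and UVB against Active, with 3, 5 and 2 of the 9 genes, and Hhip in UVB against Quiescent stood at -0.21 and Shh in UVB against Active at -1.24.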
